A study of Mus musculus with 8 samples.

Results

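The MAP kinase cascade genes were taken by symbol: Mapk, Map2k, Map3k, Map4k, Mapkapk or Dusp followed by a number. Of the 12413 genes with an N6-methyladenosine (m6A) peak in either deposited list, 52 matched: 33 kinases in 5 tiers, 16 Dusp phosphatases, and 3 other matches (the scaffold Mapk8ip3 and the small proteins Mapk1ip1 and Mapk1ip1l). These 52 genes held 152 control and 117 PTC peaks. The annotation used here (GENCODE M21, mouse build GRCm38) holds 77 genes that match the pattern, so 25 had no named row in the lists used here.

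m6A is a methyl mark on adenosines inside messenger RNA, and it was mapped by pulling down methylated RNA fragments with an antibody and sequencing them beside the unselected input RNA. The cells were mouse primary T cells. The treatment label separates control cells from cells given PTC for 24 h, an agent that the labels do not describe, although the treatment text shared by every sample names PTC only. Each condition had 2 immunoprecipitated and 2 input samples of total RNA, 8 samples in 4 groups. Strain, genotype, sex and age of the mice are not in the labels, and neither is whether the samples of a group came from separate animals or cultures. The series title names the Polycomb protein BMI1 and liver cancer immunotherapy. The question put to the lists is where the transcripts of this cascade were marked in each condition.

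Over all genes there were 29586 control peaks (11390 genes) and 23368 PTC peaks (10859 genes). In their summary, the authors' deposited table gives 36.07% of control reads and 33.03% of PTC reads in peaks, and its peak numbers (19420 and 15855) are lower than those of the lists. There is 1 list per condition, so no difference between the conditions has a replicate check and no test was possible. Read depth is unknown. Markers fixed for T cells had a peak in both lists in 11 of 11 genes, those for B cells in 5 of 6, and those for myeloid cells in 6 of 7. Of 3 natural killer markers 1 was in both lists and 1 in the control list only, and of 3 erythroid markers 2 were in the PTC list only. A peak is not a level, and the part of other cells in the results was not tested. In these bulk samples, fewer cells of a type and less RNA per cell cannot be told apart.

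In the MAP kinase cascade, a signal at the membrane is passed down a chain of kinases, each of which phosphorylates the next. MAP4Ks and small GTPases act on MAP3Ks, MAP3Ks on MAP2Ks, and MAP2Ks on the MAP kinases of the ERK, JNK and p38 groups, which phosphorylate transcription factors and further kinases such as the MAPKAPKs. Dusp phosphatases of the MAP kinase phosphatase group remove the activating phosphates again, and several of them are immediate targets of the pathway they shut down. In T cells the cascade carries signals from the T cell receptor, costimulation and cytokines.

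The m6A writer prefers adenosines in a short consensus called DRACH, whose centre is the methylated A followed by C, and GGACT is its most favoured form. The sequences below are from the GENCODE M21 transcripts on GRCm38, read 5′ to 3′ on the transcript strand with T for U, and the capitals mark GGACT. They are shown because they lie in the strongest peak of each tier, and each of these sites also lay in a peak of the other list. The strongest MAPKAPK peak, in Mapkapk3, held no GGACT. A match describes the letters and does not show that the adenosine is methylated.
Mapk6, coding sequence, chr9:75398059-75398079, minus strand: aggtacatGGACTtaaaacca
Map2k4, 3′ UTR, chr11:65689901-65689921, minus strand: aaccaccaGGACTgaaggaag
Map2k4, 3′ UTR, chr11:65689788-65689808, minus strand: caagcctgGGACTtgagccat
Map3k1, coding sequence, chr13:111755992-111756012, minus strand: ctggaaaaGGACTaagtgcta
Map3k1, coding sequence, chr13:111755923-111755943, minus strand: tctctgtaGGACTtcccagct
Map4k1, 5′ UTR, chr7:28982857-28982877, plus strand: cgggcccaGGACTtgtgtgga
Mapk8ip3, 3′ UTR, chr17:24895043-24895063, minus strand: ggaacgaaGGACTtatggcgg
Dusp5, 3′ UTR, chr19:53541509-53541529, plus strand: ggctctcgGGACTgtatggaa
Dusp5, 3′ UTR, chr19:53541969-53541989, plus strand: gtgaccttGGACTttggtgtg
Dusp11, coding sequence, chr6:85947698-85947718, minus strand: gccggagaGGACTattcacaa
Dusp11, coding sequence, chr6:85947651-85947671, minus strand: aaataagtGGACTgctgagag

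Nearly all members had a peak in both conditions. Of the 52 genes, 47 were in both lists (79.2% of all listed genes were), 1 was in the control list only (12.5% of all listed genes) and 4 were in the PTC list only (8.24%). Among listed protein-coding genes, the kind of all 52 members, those shares were 84.2%, 9.37% and 6.43%. The exact 95% interval of the members' share in both lists, 79.0% to 96.8%, held both background shares. The gene in the control list only was Map4k3, and those in the PTC list only were Map3k15, Map4k5, Dusp19 and Dusp23. All MAPKs, MAP2Ks, MAPKAPKs and MAP kinase phosphatases with any peak were in both lists.

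Control peaks outnumbered PTC peaks by 1.30 times over the members and by 1.27 times over all genes. More control than PTC peaks were listed for 26 of 52 members (45.5% of all listed genes) and more PTC than control peaks for 10 (20.9%), and 16 had equal numbers. The protein-coding background was 47.9% and 20.7%. Among 33 kinases 20 had more control peaks, 4 had more PTC peaks and 9 had equal numbers, with 3.26 control and 2.31 PTC peaks per gene in the respective list. Among 16 Dusp genes 4 had more control peaks, 5 had more PTC peaks and 7 had equal numbers, with 2.57 control and 2.00 PTC peaks per gene. The MAP kinase phosphatases were the only tier with more PTC peaks (20) than control peaks (18). Their control peaks still covered more sequence, 13790 nt against 11677 nt in the PTC list. In Dusp4 and in Dusp6, 1 control peak met 2 PTC peaks, and in Dusp16, 2 control peaks met 1 PTC peak. No test of kinases against phosphatases was made, since the genes are not replicates of a condition.

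**Figure D1:**
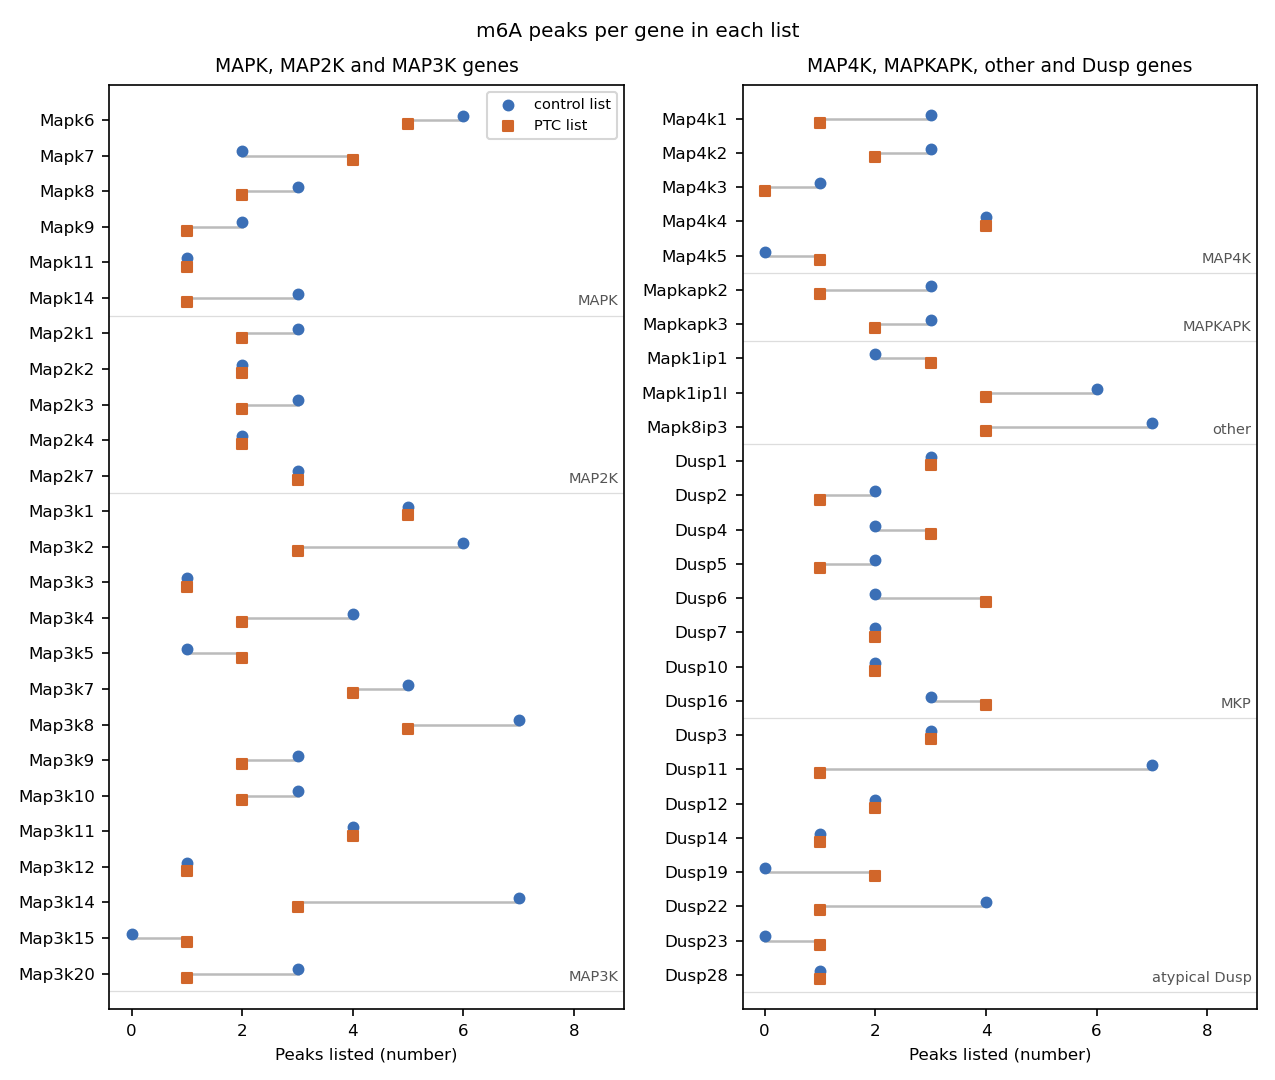
Number of m6A peaks (horizontal axis) listed for each of 51 member genes, with circles for the control list, squares for the PTC list and a line joining them; MKP stands for the MAP kinase phosphatases. Most lines in the kinase tiers run from a lower PTC count to a higher control count, with Dusp11 (7 against 1) and Map3k14 (7 against 3) the longest.

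Many member peaks had a counterpart in the other list. Counting a peak as matched when it shared at least 1 bp of exon with a peak of the other list on the same strand, 97 of 117 PTC peaks (82.9%) and 94 of 152 control peaks (61.8%) were matched. Over all genes 78.8% of PTC peaks and 60.2% of control peaks were matched. Stricter rules gave lower member shares: with 50% of each peak shared, 43.4% of control and 56.4% of PTC peaks were matched, and with midpoints within 100 bp, 40.1% and 52.1%. Merging touching peaks gave 170 regions, of which 92 had a peak in both lists, 58 in the control list only and 20 in the PTC list only. The authors' −log10 false discovery rate (FDR), a measure of how firmly a peak stood out from input, had a median of 11.5 over matched control peaks and 3.71 over unmatched ones. The corresponding PTC medians were 9.33 and 3.55. At a −log10 FDR of at least 5 stood 89 of 152 control member peaks (53.4% of all control peaks) and 76 of 117 PTC member peaks (59.8%). Among matched control peaks 71 of 94 reached 5 (73.4% over all genes) and among unmatched ones 18 of 58 (23.3% over all genes). In the PTC list 70 of 97 matched peaks (71.2% over all genes) and 6 of 20 unmatched ones (17.7% over all genes) did so. Unmatched peaks were also narrow, with a median of 180 nt in each list against 496 nt (control) and 329 nt (PTC) for matched ones. The same split held over all genes, with medians of 10.1 and 3.32 in the control list. Whether a weaker enrichment lay below that threshold in the other condition cannot be read from the lists.

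By tier, the MAP kinase phosphatases had the highest matched share of control peaks, 16 of 18, with 17 of 20 for PTC peaks. Over all genes the matched shares were 60.2% and 78.8%. The control peaks of these phosphatases were also wide and strong, with a median of 733.5 nt and a median −log10 FDR of 13.65. Over all genes those control medians were 268 nt and 5.47. The part of width and strength in the matched share was not tested. The atypical Dusp genes had the lowest share for control peaks, 8 of 18, with 8 of 12 for PTC peaks, and their control peaks were the weakest, with a median −log10 FDR of 2.77 in the control list. MAP3K peaks were matched for 31 of 50 control and 33 of 36 PTC peaks. MAP4K peaks were matched for 5 of 11 and 5 of 8, the latter the lowest share for PTC peaks.

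**Figure D2:**
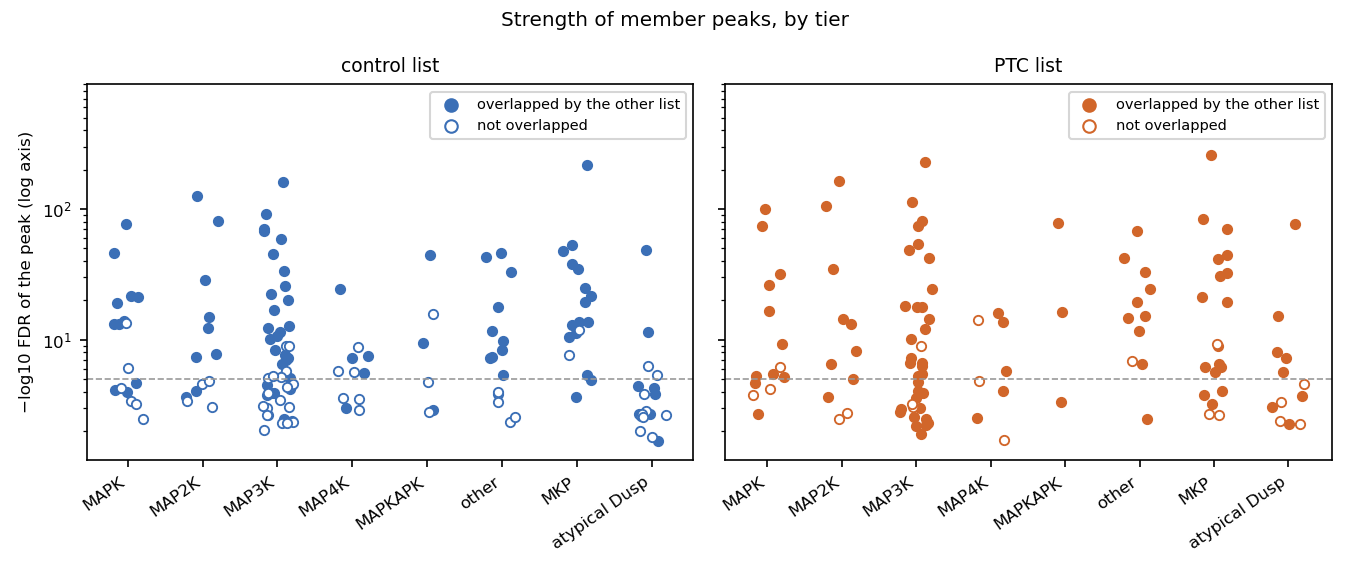
−log10 FDR of the peaks of 51 member genes (vertical log axis) by tier in the control list (left) and the PTC list (right), with filled points for peaks matched in the other list, open points for unmatched peaks and a dashed line at 5. Open points gather at the low end, and the highest filled points are those of Dusp5, at 217 (control) and 259 (PTC).

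At a −log10 FDR of at least 10, 4 of 56 control member peaks (6.89% of all such control peaks) and 1 of 49 PTC member peaks (2.01%) were unmatched. Mapk14, Mapkapk2 and Dusp5 had such a control peak, and the PTC peak was in Map4k4.

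Among the MAP kinases, 7 of 13 annotated genes had a peak. Mapk14, which encodes p38α, had 3 control peaks and 1 PTC peak. A long 3′ UTR peak was listed in control (45.8, fold 7.08, 2248 nt) and in PTC cells (74.0, fold 5.59, 2009 nt). An unmatched control peak of 13.4 and fold 4.69 lay in the 5′ UTR at chr17:28691419-28691778, and another of 3.41 lay in the coding sequence. The 5′ UTR peak held 2 DRACH matches, in capitals here, and no GGACT, while the 3′ UTR peak held 4 GGACT sites (control) and 3 (PTC).
Mapk14, 5′ UTR, control peak only, chr17:28691507-28691527, plus strand: ctgcaggaGGACCgcggcggg
Mapk14, 5′ UTR, control peak only, chr17:28691583-28691603, plus strand: gccgcggcTGACAggggcggc

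Mapk6, an atypical ERK, had 6 control and 5 PTC peaks, and every PTC peak was matched. Its strongest peak lay in the coding sequence at 77.4 (fold 7.27) in the control list, and the matching PTC peak (fold 9.20) ranked above 96.4% of the PTC list. Mapk7 (ERK5) went the other way, with 2 control and 4 PTC peaks. Its coding peak was listed at 19.1 and 31.9, and the 2 additional PTC peaks, at 3.74 and 4.19, lay in the 5′ UTR. The JNK genes Mapk8 and Mapk9 carried only 3′ UTR peaks, 3 control and 2 PTC peaks of 2.47 to 5.25 for Mapk8, and a matched peak of 13.8 and 26.2 beside an unmatched control peak of 4.30 for Mapk9.

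Mapk11, which encodes p38β, was the only member in both lists with no matched peak (5.3% of genes in both lists). A control peak of 596 nt at chr15:89142903-89143498 (6.08, fold 22.4) lay in the 3′ UTR, and a PTC peak of 180 nt at chr15:89143646-89144148 (6.22, fold 2.50) lay at the stop codon. The control peak held 1 GGACT site and the PTC peak none.
Mapk11, 3′ UTR, control peak only, chr15:89143394-89143414, minus strand: gctcttgaGGACTatctggat

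ERK1 (Mapk3), JNK3 (Mapk10) and the p38 genes Mapk12 and Mapk13 had no row in the lists used here, nor did Mapk4 and Mapk15. A gene without a peak may be unmethylated, little expressed or below the threshold, and these cannot be told apart.

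Of 7 MAP2K genes, 5 had peaks, all in both lists, 13 control and 11 PTC peaks in all. Map2k4, which activates JNK and p38, had the strongest: a 3′ UTR peak of 127 (fold 5.92, 1525 nt) in the control list and 165 (fold 5.70, 1286 nt) in the PTC list, ranked above 99.1% and 98.6% of all peaks. A second 3′ UTR peak was listed at 7.34 and 3.63. Map2k3, an activator of p38, had a 3′ UTR peak of 81.0 and 105, and a 5′ UTR peak of 3.61 in control and 14.3 in PTC cells, with an unmatched control coding peak of 3.38. Map2k7, an activator of JNK, had a peak beside its stop codon at 28.7 and 34.8 and a coding peak at 7.79 and 4.98. These Map2k7 peaks share sequence with peaks listed for the overlapping gene model Gm49320 on the same strand, so the reads of the genes cannot be told apart there. The ERK activators Map2k1 and Map2k2 had weaker peaks, with a 5′ UTR peak of 14.8 and 13.1 in Map2k1 and a 3′ UTR peak of 4.04 and 8.25 in Map2k2.

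The MAP3K tier was the largest, with 14 of 18 annotated genes, 50 control and 36 PTC peaks. Map3k1 (MEKK1) carried 5 peaks in each list. Its strongest lay within the coding sequence, at chr13:111755441-111758088 in the control list (161, fold 4.79) and chr13:111755441-111757118 in the PTC list (230, fold 4.74), and held the 2 GGACT sites printed above. Its 3′ UTR carried control peaks of 67.8 and 45.6 and PTC peaks of 114, 49.0, 6.69 and 3.94, all of them matched. The 2 remaining control peaks, at 8.99 and 5.81 in the coding sequence, were unmatched.

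Map3k7 (TAK1), a kinase between receptor signals and both JNK and NF-κB, had 5 control and 4 PTC peaks, all in the 3′ UTR. The strongest was listed at 91.7 (control) and 54.0 (PTC), and neither held a GGACT site. Map3k3 (MEKK3) had a single peak in each list, over the stop codon and 3′ UTR, with 70.6 (fold 10.8) and 81.3 (fold 8.64) and 4 GGACT sites in each. Map3k8 (Tpl2), which activates the ERK pathway, had 7 control and 5 PTC peaks, and all 5 PTC peaks were matched. Its strongest lay toward the start of the coding sequence, at 58.6 and 73.6.

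Map3k14 (NIK), the kinase of the noncanonical NF-κB pathway, had 7 control and 3 PTC peaks, all 3 of the latter matched. The 3′ UTR peak was listed at 20.1 (fold 4.76) and 24.3 (fold 6.17) and held 4 GGACT sites in each list. Control peaks of 7.30 and 2.45 in the coding sequence touched a PTC peak of 7.21, the first sharing 210 nt with it and the second only 1 nt. A control peak of 5.28 at the stop codon touched a PTC peak of 2.79. The 3 unmatched control peaks, at 9.01, 5.10 and 4.39, all lay in the coding sequence. Map3k2 (MEKK2) had 6 control and 3 PTC peaks. Its matched 3′ UTR peaks were 8.29 and 6.96 in the control list and 12.1 and 5.43 in the PTC list, and its 4 unmatched control peaks ranged from 2.31 to 5.19. A difference of 3 or more peaks between the lists was found in 5 of the 47 members in both lists (9.07% of such genes): these 2 MAP3Ks, Mapk8ip3, Dusp11 and Dusp22, each with more control peaks.

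Map3k15 was in the PTC list only, with a 3′ UTR peak of 391 nt at chrX:160122961-160123351 (8.97, fold 2.27). All 391 nt lie within a PTC peak of Pdha1 on the opposite strand, which also had control peaks there. Whether the libraries kept strand is not stated, so reads of the genes cannot be told apart. Among the other MAP3Ks, the strongest peaks were 25.7 and 42.4 for Map3k11 (MLK3), 16.9 and 17.9 for Map3k4 (MEKK4), 12.2 and 4.02 for Map3k12 (DLK), and 10.7 and 5.26 for Map3k5 (ASK1), control value first. The Map3k12 peaks share sequence with peaks of Pcbp2 on the opposite strand, so their reads cannot be told apart. Map3k9, Map3k10 and Map3k20 had no peak above 4.78 in either list. Map3k6, Map3k13, Map3k19 and Map3k21 had no row in the lists used here.

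All 5 MAP4K genes had a peak, yet none of their peaks passed 24.5. Map4k1 (HPK1), a brake on T cell receptor signalling, had a matched peak spanning the 5′ UTR and start of the coding sequence, at 24.5 (fold 2.55) in the control list and 16.1 (fold 2.22) in the PTC list, and 2 unmatched control peaks of 3.52 and 3.59. Map4k2 had a 3′ UTR peak of 7.22 and 13.6, a second one of 3.01 and 2.52, and an unmatched control peak of 5.69. Map4k4 had 4 peaks in each list. Its coding peaks of 5.53 and 7.54 in the control list touched PTC peaks of 4.08 and 5.73. In its 3′ UTR the lists differed, with a control peak of 8.74 at chr1:40025652-40026041 and a PTC peak of 14.1 at chr1:40024963-40025352, neither matched. The remaining unmatched peaks of Map4k4 were coding, 5.77 (control) and 4.81 (PTC). Map4k3 (control only, 2.88, fold 5.23, chr17:80581167-80581316) and Map4k5 (PTC only, 1.71, fold 3.01, chr12:69804886-69805006) each rested on a single 3′ UTR peak. The Map4k3 peak ranked above 19.7% of the control list and the Map4k5 peak above 0.529% of the PTC list.

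Downstream of p38, Mapkapk3 had a peak at the stop codon of 44.5 (fold 5.61) in the control list and 77.6 (fold 8.48) in the PTC list, with no GGACT site in either. A peak at its start was listed at 2.91 and 3.33, and an unmatched control peak at 2.78. Mapkapk2 (MK2), which acts on RNA-binding proteins that control cytokine messages, had 3 control peaks and 1 PTC peak. The PTC peak, at chr1:131054952-131055220 over the stop codon (16.2, fold 1.66), touched a control peak of 9.46. The strongest control peak, in the 3′ UTR at chr1:131054326-131054594 (15.6, fold 2.14), was unmatched and held 2 GGACT sites, and the remaining control peak of 4.76 was unmatched too. Mapkapk5 had no row in the lists used here. The Mapkapk2 sites are shown because they are the strongest GGACT-bearing member peak of the control list without a counterpart.
Mapkapk2, 3′ UTR, control peak only, chr1:131054466-131054486, minus strand: ggctacagGGACTcctgcttg
Mapkapk2, 3′ UTR, control peak only, chr1:131054332-131054352, minus strand: catcaggaGGACTgggtcccc

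Of the other matches, Mapk8ip3 (JIP3), a JNK scaffold, had 7 control and 4 PTC peaks, with all 4 PTC peaks matched. Its strongest 3′ UTR peak was 43.1 (fold 16.4) and 68.4 (fold 9.29). That peak and the next 3′ UTR peak, at 17.7 and 24.6, share sequence with peaks of Eme2 on the same strand or Mrps34 on the opposite strand, so their reads cannot be told apart. A peak in a noncoding exon was listed at 5.39 and 19.3, a 5′ UTR peak at 11.7 and 6.52, and the unmatched control peaks were 3.97, 3.35 and 2.57. Mapk1ip1l had 6 control and 4 PTC peaks, the strongest in the 3′ UTR at 46.1 in the control list and, elsewhere in that UTR, 42.6 in the PTC list. Mapk1ip1 had 2 control and 3 PTC peaks with 8.27 and 15.2 as the highest values, and part of its 5′ UTR is shared with peaks of Ppp2r2d on the opposite strand.

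The MAP kinase phosphatases carried the strongest peak of all members. Dusp5, a nuclear phosphatase of ERK, had a peak over the end of its coding sequence and the 3′ UTR at chr19:53540972-53542223 in the control list (217, fold 6.36) and at chr19:53540942-53542193 in the PTC list (259, fold 5.23). Each was 1252 nt wide, 1222 nt were shared, and each ranked above 99% of its list (99.7% and 99.5%). Both held the 2 GGACT sites printed above, 197 and 657 nt past the stop codon. A second control peak, at the start of the coding sequence (chr19:53529317-53529645, 11.9, fold 3.15), was unmatched.

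Dusp10, a phosphatase of JNK and p38, had a coding peak of 47.4 (fold 5.38) and 83.7 (fold 7.47) and a peak at the stop codon of 34.8 (fold 5.61) and 41.5 (fold 4.65). Dusp1, an immediate early phosphatase of p38, JNK and ERK, had 3 peaks in each list, all of them matched. Its 3′ UTR peak was 52.7 (fold 5.48) and 71.0 (fold 3.90), and its coding peaks were 13.0 and 3.65 in the control list and 6.13 and 5.66 in the PTC list. Dusp16, which also acts on JNK and p38, had its strongest peak in the 5′ UTR, at 25.1 and 44.4, and 2 weak unmatched PTC peaks of 2.71 and 2.65. Dusp7, a cytoplasmic ERK phosphatase, had 2 matched peaks, the stronger at 37.9 and 30.5. Dusp4 and Dusp2, both nuclear, had strongest peaks of 19.6 and 19.3 and of 21.6 and 21.2.

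Dusp6, the cytoplasmic phosphatase of ERK, had 2 control and 4 PTC peaks. The control peaks, 5.40 at the start of the gene and 10.4 over the stop codon and 3′ UTR, were both matched. The PTC list had peaks of 6.13 in the 5′ UTR, 4.07 at the end of the coding sequence and 3.22 in the 3′ UTR, which touched them. Its strongest PTC peak, 9.33 (fold 3.70), lay within the coding sequence at chr10:99264609-99264907 and had no control counterpart. That peak is 299 nt, all coding, with 3 GGACT sites in capitals, more than any other unmatched member peak. It is printed whole because it is the only unmatched peak that was also the strongest of a MAP kinase phosphatase in its list.
Dusp6, PTC peak only, chr10:99264609-99264907, plus strand: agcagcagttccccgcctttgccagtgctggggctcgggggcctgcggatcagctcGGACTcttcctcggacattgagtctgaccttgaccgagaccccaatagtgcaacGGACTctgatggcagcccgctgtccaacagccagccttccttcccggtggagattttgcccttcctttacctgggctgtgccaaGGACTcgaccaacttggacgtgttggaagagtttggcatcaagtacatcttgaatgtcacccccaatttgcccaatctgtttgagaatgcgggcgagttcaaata

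Dusp8 and Dusp9 of the same group had no row in the lists used here.

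Atypical Dusp genes, most of which lack a MAP kinase docking domain, had weaker peaks. The exception was Dusp11, a phosphatase that acts on RNA 5′ ends, whose peak over the stop codon was 48.6 (fold 2.86, 841 nt) in the control list and 76.7 (fold 2.82, 781 nt) in the PTC list, with 4 GGACT sites in each. The control list had 6 further Dusp11 peaks, from 1.80 to 6.28, 4 of them in the 3′ UTR and 2 in the coding sequence, and none was matched. Its count of 7 against 1 was the largest gap of any member. Dusp3 (VHR), which acts on ERK and JNK, had 3 matched peaks in each list, the strongest a 3′ UTR peak of 11.5 (fold 43.4) and 15.2 (fold 6.98), the others 4.42 and 1.69 in the control list and 8.02 and 3.03 in the PTC list. Dusp22, reported to act on the T cell kinase Lck, had 4 control peaks and 1 PTC peak. The PTC peak of 7.29 (fold 3.90) beside the stop codon was matched by a control peak of 2.71, and the other control peaks, 3.82, 2.57 and 1.99 along the 3′ UTR, were unmatched.

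Dusp19 was in the PTC list only, with a 5′ UTR peak at chr2:80617284-80617464 (4.56, fold 20.3) and a peak at the stop codon at chr2:80630925-80631105 (2.39, fold 2.79). Dusp23 was in the PTC list only with a 3′ UTR peak of 150 nt at chr1:172631454-172631603 (3.36, fold 7.03). Dusp12, Dusp14 and Dusp28 were in both lists with no peak above 5.61, and a control peak of 2.63 in Dusp12 shares its sequence with a peak of Gm26620 on the opposite strand. None of the 6 peaks of the 5 members in 1 list only held a GGACT site, so no sequence is shown for them. Dusp13, Dusp15, Dusp18, Dusp21, Dusp26 and Dusp27 had no row in the lists used here.

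**Figure D3:**
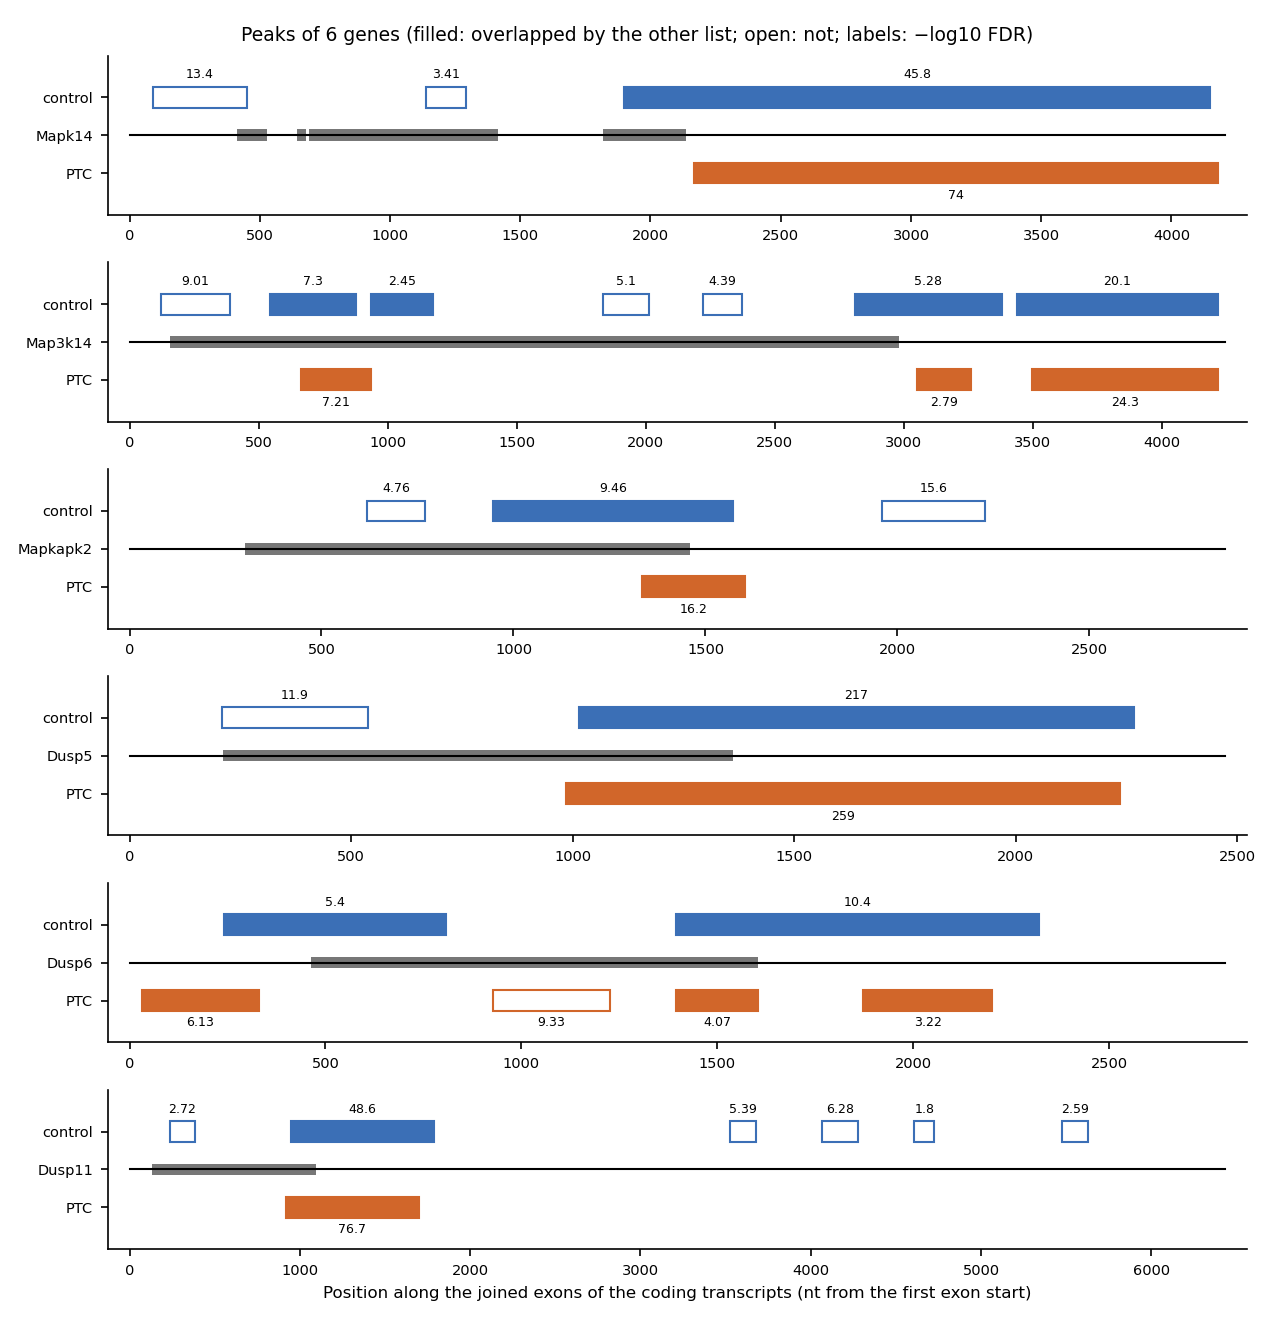
Peaks of 6 members along the joined exons of their complete coding transcripts (horizontal axis, nt from the first exon start), with control peaks above and PTC peaks below the line, sequence that is coding in any of them in grey (gaps in Mapk14 are exon parts that code in none), filled boxes for matched and open boxes for unmatched peaks, and the −log10 FDR beside each box. A Dusp11 control peak of 2.82 with its midpoint in the coding sequence, whose ends do not both lie in these exons, is not drawn. The matched boxes lie mainly over the stop codon and 3′ UTR. The open boxes lie in several places, with those of Mapk14 (13.4) and Dusp5 (11.9) at the 5′ end. The open box of Dusp6 (9.33) lies in the coding sequence, and those of Mapkapk2 (15.6) and most of Dusp11 lie in the 3′ UTR.

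The strongest control peak and the strongest PTC peak of a gene overlapped in 34 of the 47 members in both lists (80.4% of all genes in both lists). They did not in 13 members, among them Mapk8, Mapk11, Map3k9, Map3k10, Map3k20, Map4k4, Mapkapk2, Mapk1ip1, Mapk1ip1l, Dusp6, Dusp12 and Dusp22. In 9 of these 13 the strongest control peak was below 10. A peak within the top 10% of its list by FDR was carried by 17 of 48 members in the control list (21.7% of all genes in that list) and by 14 of 51 in the PTC list (18.6%), and 14 members had one in both.

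Along the transcript, member peaks lay mainly in the 3′ UTR: by midpoint, 78 of 152 control peaks (46.6% of all control peaks in protein-coding genes) and 65 of 117 PTC peaks (50.2%). The coding sequence held 55 control peaks (background share 41.5%) and 35 PTC peaks (background share 40.4%). The members' PTC share there, 29.9%, had an exact interval of 21.8% to 39.1%, which covers counting error only and lies below the background share. The control interval, 28.6% to 44.4%, held the control background. Taken apart, the PTC intervals of the kinase tiers (19.7% to 41.5%) and of the Dusp genes (18.6% to 53.2%) held the PTC background. In the 5′ UTR lay 10 control peaks (background share 5.99%) and 15 PTC peaks (background share 5.84%). The members' PTC share in the 5′ UTR, 12.8%, had an exact interval of 7.36% to 20.3%, which covers counting error only and lies above the background share. The coding sequence and the 5′ UTR were among several regions looked at, and the 2 PTC peaks of Mapk1ip1 and 2 of Mapk7 are among the 5′ UTR peaks counted. The 15 PTC peaks were spread over 13 members, and 5 of them were unmatched, against 3 of the 10 control peaks. In Dusp4, Dusp6 and Mapkapk3 the PTC peak overlapped a control peak whose midpoint fell in the coding sequence. Those overlapping peaks thus count in different regions of each list. No matched control peak in the 5′ UTR met a PTC peak placed elsewhere. By tier, the MAP2Ks had 3 of 11 PTC peaks in the 5′ UTR, the MAP kinase phosphatases 3 of 20 and the other matches 3 of 11. Taken apart, the kinase tiers had 10.8% (interval 4.78% to 20.2%) and the Dusp genes 12.5% (interval 3.51% to 29.0%). The kinase and Dusp intervals each held the background share of 5.84%. So did that of the MAP kinase phosphatases, 3.21% to 37.9%. The intervals of the MAP2Ks and of the other matches, each 6.02% to 61.0% on 11 peaks, lay just above it. Within 200 nt of the stop codon lay 19 control peaks (background share 16.3%) and 24 PTC peaks (background share 21.3%). The strongest peak of each of the 47 members in both lists was also placed, with the share over all protein-coding genes in both lists in brackets. The 3′ UTR held 32 of the control ones (51.4%) and 31 of the PTC ones (53%), and the coding sequence 11 (43%) and 13 (41.9%). The 5′ UTR held 4 (3.9%) and 3 (3.83%), and the region near the stop codon 8 (28.9%) and 11 (32.8%).

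**Figure D4:**
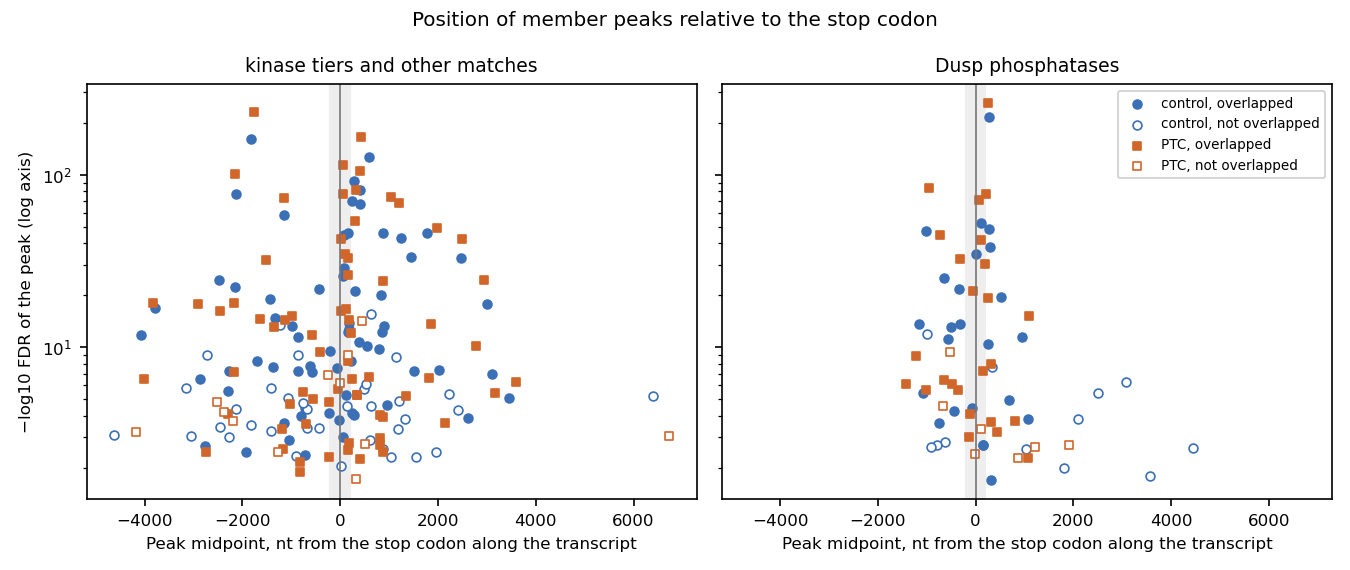
Distance of the peak midpoints of 51 member genes from the stop codon along the transcript (horizontal axis, nt; negative values lie upstream) against their −log10 FDR (vertical log axis) for the kinases and other matches (left) and the Dusp genes (right), with circles for control, squares for PTC, filled symbols for matched peaks and a grey band 200 nt to each side of the stop codon. The Dusp5 peaks of 217 and 259 stand just past the stop codon, and the Map3k1 peaks of 161 and 230 lie far upstream of it.

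Searched on the sense strand within 50 nt to each side of each midpoint, GGACT was found in 25 control member peaks (16.4%; 11.6% over all peaks of protein-coding genes) and in 22 PTC member peaks (18.8%; 13.3%). DRACH, which includes GGACT, was found in 138 (90.8%; 87%) and 103 (88.0%; 88.6%). Over the whole peak GGACT was present in 69 control peaks (34.7% of all control peaks of protein-coding genes) and 59 PTC peaks (38.3%). It was present in 56 of 94 matched and 13 of 58 unmatched peaks in the control list (45.3% and 18.6% over all protein-coding genes). In the PTC list it was present in 53 of 97 and 6 of 20 (42.8% and 20.6%). The matched peaks were also wider, as given above, and the part of width in these shares was not tested.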

How the data were processed

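The deposited files used here were a control and a PTC peak list and a summary table with 1 line per condition, and no table held values per sample. The members and gene lists were chosen with earlier results of these data known. Per the submitters' processing notes, the authors used BWA 0.7.12 and MACS2 2.1.0 and the build GRCm39, with no role or settings. No source used here gives the caller of these lists, its threshold, the use of strand or any pooling of samples.

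Per the file headers, each peak has a fold enrichment, a p-value, a log10 p-value score and an FDR, all the authors' values, and the fold is a linear ratio whose scaling is not stated. FDR is given here as −log10 FDR. Fold and FDR describe and rank peaks within a list only. The highest FDR was 4.27% (control) and 4.68% (PTC). The authors' deposited table holds a count of peaks, the fragment length (213 and 211 nt) and the percent of reads in peaks. Read depth is unknown.

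Of 38890 block edges at splice junctions, 99.9% lay at exon edges of GENCODE M21, so coordinates were read as GRCm38 and none was converted. Starts were turned to count from 1. A midpoint of the joined exon blocks placed each peak on the gene's complete coding transcript with the most overlap, and gave region, distance from the stop codon and a motif window of 50 nt to each side. A region named for a peak is that of its midpoint. Overlap was computed with bedtools 2.31.1 on the same strand (at least 1 bp), and the functions were tested on simulated lists. Intervals are exact Clopper-Pearson 95% intervals (scipy 1.17.1) and cover counting error only.

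Every member could be named, and 1 that counts in all totals is not reported here by itself or drawn. Peak values were to be described for members in 1 list only, the 3 members of each tier with the highest −log10 FDR, those whose peak numbers differed by 3 or more, and those in both lists without a matched peak. For some of these, among them Mapk6, Map2k7, Map3k2, Map3k7 and Mapk1ip1l, only part of the peaks is described. Printed sequences of Mapk14, Mapk11, Mapkapk2 and Dusp6 were chosen after their values were seen. The design also held a count test, which these lists without counts do not allow. Alternatives were stricter thresholds, lists of equal length, the kinases and phosphatases alone, and other rules for overlap, stop codon distance and motif window.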

Additional observations from a re-analysis of the deposited data

How the results depend on the processing

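With 1 list per condition, no replicate could be left out. No paired analysis was possible because the lists carry no samples and the sample numbers are not shared between groups. Of 40 alternatives computed, 16 stayed within 1.5 times the main count or inside its interval and 24 did not. With a −log10 FDR of at least 5 the members had 89 control and 76 PTC peaks, and with a fold of at least 4 they had 65 and 52. At that fold the order of the classes turned, with 6 members in the control list only (Dusp1, Map2k2, Map4k1, Map4k2, Map4k3, Mapk11) and 2 in the PTC list only (Dusp19, Dusp23). Among all genes at that fold 24.6% were in the control list only and 16.0% in the PTC list only. With −log10 FDR of at least 5, 1 member (Map3k12) was in the control list only and 5 in the PTC list only (Dusp14, Dusp22, Map2k2, Map3k15, Mapk8), which shares with the main result only Map3k15. The shares of all genes at that FDR were 10.6% and 9.86%. At equal list lengths 0 members were in the control list only (7.54% of all genes) and 5 in the PTC list only (13.6% of all genes). The members then had 127 control and 117 PTC peaks. Peak numbers of kinases and Dusp genes apart were not computed at that setting. Overlap of control and PTC peaks was 43.4% and 56.4% with 50% of each peak shared, 40.1% and 52.1% with midpoints within 100 bp, and 73.1% for PTC peaks at a fold of at least 4. Control and PTC peaks near the stop codon made up 5.92% and 8.55% within 100 nt and 24.3% and 35.9% within 400 nt. A window of 100 nt to each side gave GGACT in 32.9% and 30.8% and DRACH in 97.4% and 99.2% of control and PTC peaks, and whole peaks gave 45.4% and 50.4%, and 98.0% and 98.3%. The cause of these shifts was not tested, beyond the wider or narrower criterion itself. Read depth, which sets how weak a peak can be listed, is unknown.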

Other observations

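Genes that feed into the cascade or act below it, named from a list of 70 pathway genes outside the symbol pattern, had a peak in 66 cases. Of these 59 were in both lists, 6 in the control list only (Rasgrp2, Braf, Mapkbp1, Mknk2, Elk1 and Mef2d) and 1 in the PTC list only (Rps6ka2). The shares of all listed genes were 79.2%, 12.5% and 8.24%, and those of listed protein-coding genes 84.2%, 9.37% and 6.43%. The strongest peaks of the genes in 1 list only ran from 1.85 (Rps6ka2) to 6.76 (Mapkbp1). Jun, a transcription factor phosphorylated by JNK, had a peak whose FDR was too small for the list to hold in both conditions. Tab2, an adaptor of the Map3k7 kinase, had strongest peaks of 225 in the control list and too small an FDR to list in the PTC list. Elk4, a transcription factor target of ERK, had 194 and 239 (−log10 FDR, control value first). Braf, the kinase below Ras, had a single control peak of 3.40.

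Map2k3os, an antisense gene that fits the symbol pattern, carried no name in the lists and was not counted as a member. It had 1 control peak, at chr11:60921152-60921826 (6.99, fold 28.4), and 2 PTC peaks of 6.98 and 3.27.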
